A study of Caenorhabditis elegans with 16 samples.

Results

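The genes compared here are those listed as different between fasted and fed Caenorhabditis elegans after a heat shock. They were chosen by one rule, which takes every gene of the deposited comparison of fasted with fed heat-shocked worms, with its raw counts in 4 fasted and 4 fed libraries. That table holds 1442 of the 15456 genes over which the authors adjusted their p-values, or 9.33%, because only genes that had an unadjusted p under 0.05 in their own comparison were kept in it. Each gene was thus selected on the contrast it is tested in, so that a count of genes that differ describes the table and is no independent evidence. The HSF-1 targets named in the paper and the small heat shock proteins were kept out of all gene groups below.

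All worms were N2 wild-type whole animals grown with OP50 bacteria at 20°C, and every library of this comparison had 30 min at 35°C before lysis. The fasted group had been moved as mid-L4 larvae, the last larval stage, to plates without food for 24 h, and the fed group had not. The sample labels place 24 h of recovery on food between the fast and the heat shock, whereas the paper's account of the sequencing has the worms collected right after the fast and the heat shock, so these sources do not settle how long the worms had been back on food. A companion comparison of 4 fasted and 4 fed libraries without heat shock at 20°C lists 2666 of 14982 genes and serves below as a measurement in other libraries. No label says whether the 4 libraries of one group are separate cultures, and p-values then measure only a spread between libraries that may be technical.

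The worm's outer cuticle is a layered mesh of collagens and cuticlins that the hypodermis secretes anew at each molt, and astacin proteases, hedgehog-related proteins and patched-related membrane proteins take part in building and shedding it. Their transcripts are known to come and go in waves with each larval stage, and a separate set of adult collagens follows after the last molt. Neuropeptides are cut from longer precursors by the convertase EGL-3, trimmed by the carboxypeptidase EGL-21 and amidated before release from dense core vesicles, and in worms several report on food. Ribosomal protein genes encode the most abundant part of the translation machinery and are usually regulated as a block.

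The 8 libraries held 17071113 to 24718844 reads, of which the listed genes took 17.3% to 18.6% in fed and 18.8% to 23% in fasted worms. By edgeR's quasi-likelihood test, adjusted over all 15456 genes, 0 genes were called (0%), with a lowest adjusted p of 0.479. Of the listed genes, 1132 (78.5%) had an unadjusted p under 0.05 by edgeR, 613 higher (42.5%) and 519 lower (36%) in fasted worms. DESeq2 called 51 genes (0.33%), 29 higher (0.188%) and 22 lower (0.142%). In the 20°C comparison edgeR called 368 of 14982 genes (2.46%), and 686 (4.58%) with the replicate number as a block. The 20°C libraries were taken as pairs by number only because same-numbered ones correlated above a set bound, at 0.103 to 0.297. No label states these pairs. Adjusted p-values at 20°C below come from the fit without the block, with the blocked value beside them where it changes a call. After heat shock the mean was higher in fasted worms for 770 listed genes (53.4%) and lower for 672 (46.6%), and the median log2 fold change over them was 0.20. The 4 fasted libraries all lay above the 4 fed ones in 250 genes (17.3%) and all below in 254 (17.6%), which makes 504 genes with the groups apart (35%). Since no gene passed edgeR, the words higher and lower below refer to means, and log2 fold changes with their standard errors come from edgeR.

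A pair of libraries stood nearer to the other group than their fellows did. Fed replicate 1 was the highest fed library, and fasted replicate 4 the lowest fasted one, for much of what had a higher mean in fasted worms. Without this pair, chosen from earlier results for lying close to the other group, edgeR called 216 genes (1.4%), 191 higher (1.24%) and 25 lower (0.162%), with 668 genes apart and higher (46.3%) and 437 apart and lower (30.3%). Leaving such a pair out widens the difference by its construction, so these values stand beside the main gene groups only to show how far 2 libraries move them. Fed replicate 3 was the other library of note, since it lay closest to the fasted worms for the cuticle genes. Counts come from whole animals, and fewer cells of a type and less RNA per cell cannot be told apart in them.

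Direction varied with gene length as the table gives it. Of the 145 shortest genes (21 to 459 bases), 90.3% had a higher mean in fasted worms, of the 145 genes at 991 to 1177 bases 53.1%, and of the 145 longest (2930 to 14802 bases) 17.9%. Cut into 10 groups by length, the share went down from group to group with 1 small exception, 53.8% at 1179 to 1426 bases. By nuclear chromosome the share varied much less, from 44.5% on X to 64.5% on III. The gene groups below differ in length, so the share at their own median length is given with the main ones, and the part of length in any group's direction was not tested.

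**Figure D1:**
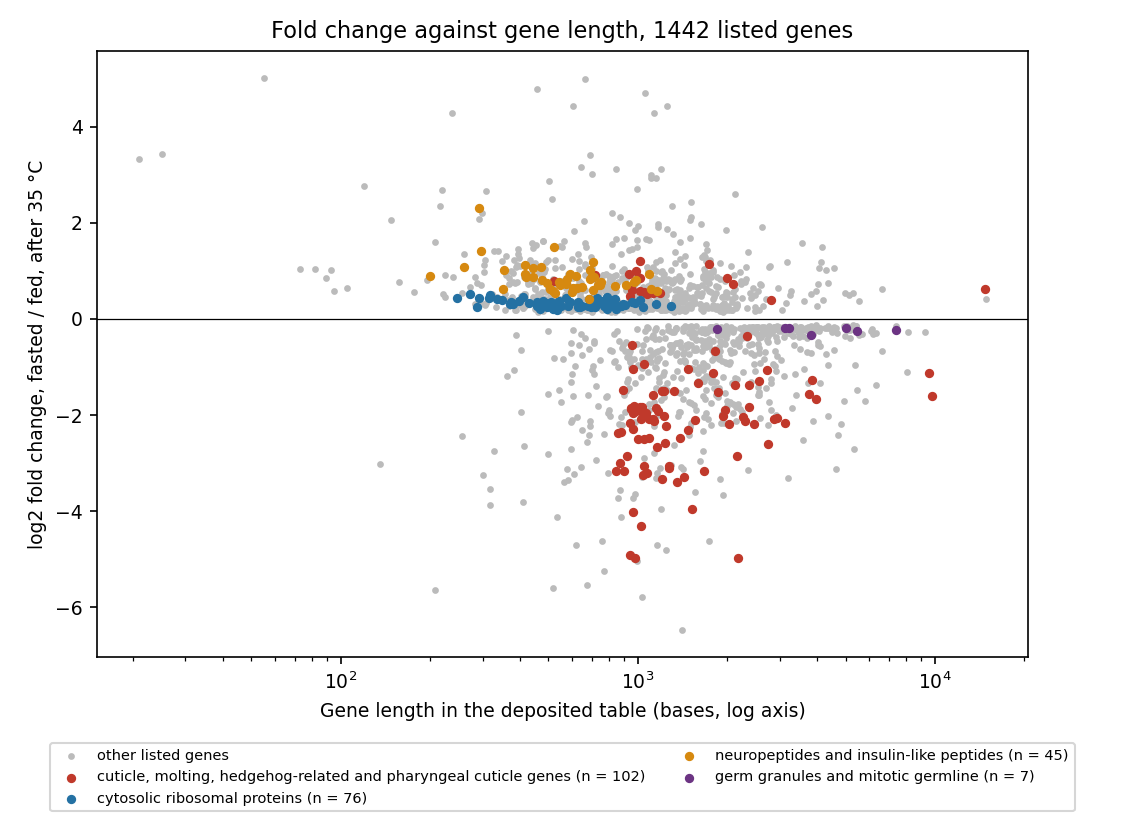
Log2 fold change of fasted against fed heat-shocked worms (edgeR, vertical axis) against gene length in bases (log scale) for the 1442 listed genes, with gene groups in colour. The cytosolic ribosomal proteins and the neuropeptides lie above 0 among the short genes, and most collagens lie below 0 at middle lengths.

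The listed genes of the cuticle and the molt were mostly lower in fasted heat-shocked worms, counted by gene and not by summed counts. Of 180 annotated cuticle collagens 41 were listed, 32 with a lower and 9 with a higher mean and a median log2 fold change of -1.95, against 0.20 over all listed genes. Of 118 cuticlins, astacins and molting genes 38 were listed, 33 lower and 5 higher, with a median of -1.54. That list also counts the pharyngeal gland gene phat-7, described below, which has its highest log2 fold change (0.93). Of 88 hedgehog-related and patched-related genes 13 were listed, 12 lower and 1 higher (median -2.05), and of 71 genes of the pharyngeal cuticle and prion-like repeats 10 were listed, 7 lower and 3 higher (median -2.05). In all 102 genes of these 4 groups were listed and 84 were lower, 31 of them with the groups apart. Of all listed genes with a lower mean 37.8% had the groups apart, so the lower cuticle genes were apart about as often as any other lower gene. Listed genes of the collagens' median length (1017 bases) had a higher mean in 53.1%. For the other 3 groups, at median lengths of 1627.5 to 1963 bases, that share was 35.4% to 38.9%.

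The cuticlins cut-2 and cut-3, which encode insoluble cuticle proteins, showed the pattern most plainly. cut-2 had 6.21, 50.1, 27.1 and 23.8 normalized counts in fasted libraries 1 to 4 and 197, 196, 74 and 388 in fed libraries 1 to 4. cut-3 had 5.32, 9.21, 11.9 and 17.3 in fasted and 86.2, 111, 22.8 and 155 in fed libraries. For both genes every fasted library lay below every fed one, and fed replicate 3 was the lowest fed library by a wide margin. The log2 fold changes were -3.0 ± 0.61 for cut-2 and -3.1 ± 0.59 for cut-3 (DESeq2 adjusted p = 0.0016 and 0.0016, edgeR adjusted p = 0.48 for both). The molting gene mlt-9 had 11.5, 15.3, 8.66 and 7.56 normalized counts in fasted and 37.9, 50.8, 23.9 and 67.8 in fed libraries. Its groups too were apart, at a log2 fold change of -2.05 ± 0.42 (DESeq2 adjusted p = 0.014), and in the 20°C libraries its log2 fold change was -1.88 (edgeR adjusted p = 0.21). noah-1, a zona pellucida protein of the outer matrix, was lower at -1.56 ± 0.50 with its groups overlapping (DESeq2 adjusted p = 0.17), with fasted replicate 3 far below the rest at 18.4 normalized counts.

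Among the collagens, DESeq2 called 6, all lower and all with the groups apart: col-65, col-74, col-107, col-14, dpy-17 and col-165. Over all 15456 genes it called 22 lower (0.142%). col-65 was nearly silent in fasted worms, at 0, 2.05, 0 and 2.16 normalized counts, and had 33, 43.5, 9.79 and 56.8 in fed worms. Its log2 fold change of -4.97 ± 0.85 (DESeq2 adjusted p = 0.0016) rests on fasted libraries of 0 to 2.16 normalized counts. col-74 had 31.9, 32.7, 31.4 and 36.7 normalized counts in fasted and 128, 154, 53.3 and 226 in fed libraries. The fasted libraries of col-74 were almost equal, and the fed ones spread widely, for a log2 fold change of -2.08 ± 0.39 (DESeq2 adjusted p = 0.0016). dpy-17, a collagen whose mutants have a short body, had the highest FPKM of those called, with 116.3, 235.3, 90.9 and 228 normalized counts in fasted and 489, 467, 249 and 793 in fed libraries. Its closest libraries nearly met, fasted replicate 2 and fed replicate 3, and its log2 fold change was -1.58 ± 0.39 (DESeq2 adjusted p = 0.031).

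The 9 collagens with a higher mean were of another level class. Their median FPKM in fed worms was 14 (1.03 to 903), whereas that of the 32 lower ones was 1.54 (0.203 to 25). They include col-19, whose product is a known adult cuticle collagen, and the abundant col-140 and col-143. col-19 had 9819, 13896, 11370 and 3131 normalized counts in fasted and 7736, 3358, 2184 and 3384 in fed libraries. Fasted replicate 4 lay among the fed libraries and fed replicate 1 close to the fasted ones, so the groups overlapped at a log2 fold change of 1.2 ± 0.46 (edgeR adjusted p = 0.58). At 20°C, in other libraries, col-19 was called by edgeR at 1.69 (adjusted p = 0.0027), as was col-42 at 1.12 (adjusted p = 0.015), which stood at 0.55 ± 0.24 after heat shock. col-140 was at 0.47 ± 0.21 and col-143 at 0.59 ± 0.24 after heat shock, with edgeR adjusted p of 0.058 and 0.057 at 20°C. With the replicate block col-143 was called at 20°C (adjusted p = 0.047). None of the 9 had the groups apart.

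**Figure D2:**
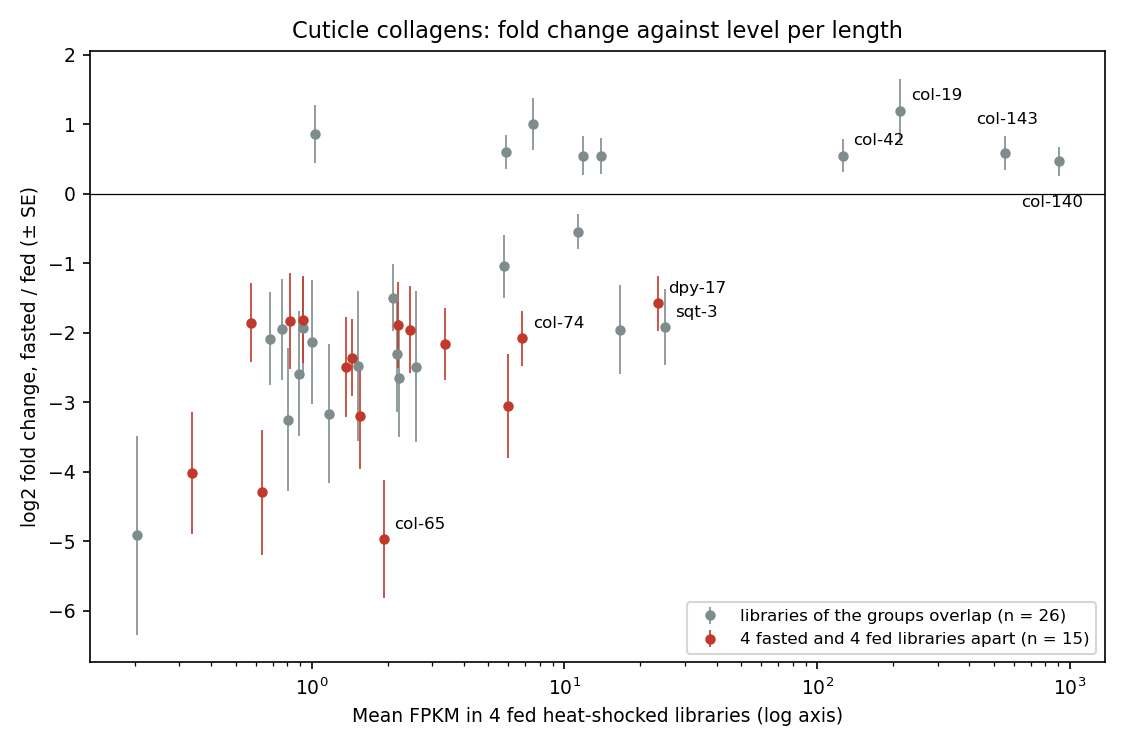
The 41 listed cuticle collagens by FPKM in fed heat-shocked worms (horizontal axis, log scale) and log2 fold change of fasted against fed with its standard error (vertical axis), in red where the groups were apart (15 genes). The 32 with a lower mean sit mostly at low FPKM and the 9 with a higher mean include the most abundant ones, among them col-19, col-140 and col-143.

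The hedgehog-related gene grl-16 had 2.66, 7.16, 7.58 and 4.32 normalized counts in fasted and 46.7, 62.2, 15.2 and 71.8 in fed libraries. The groups were apart, with fed replicate 3 again the lowest fed library, and the log2 fold change was -3.16 ± 0.56 (DESeq2 adjusted p = 0.0016). The warthog genes wrt-1, wrt-2, wrt-6 and wrt-10 and the patched-related ptr-4, ptr-8, ptr-10, ptr-16 and ptr-25 were listed too, all lower except ptr-8 (0.39 ± 0.16). abu-14, which encodes a glutamine- and asparagine-rich protein of the pharyngeal cuticle, had 6.21, 9.21, 4.33 and 13 normalized counts in fasted and 97.5, 94.3, 9.79 and 121 in fed libraries. Fed replicate 3 alone brought its groups to overlap, and the log2 fold change was -3.29 ± 0.69 (DESeq2 adjusted p = 0.0047). The 4 lipocalin genes lpr-3, lpr-4, lpr-5 and lpr-6, whose products help shape the matrix outside the epithelium, lie in a row on chromosome X, from 11057436 (start of lpr-3) to 11066811 (end of lpr-4) on the plus strand of WBcel235. All 4 were lower, at -2.85 to -2.19, with 1 of them apart (37.8% of all lower listed genes were). At 20°C all 4 were lower too, at -1.93 to -1.62 (lowest edgeR adjusted p there 0.162).

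Fed replicate 3 was the lowest fed library in 66 of the 84 lower cuticle and molting genes and fed replicate 4 the highest in 63. The mean over the collagens of log2(normalized count + 1), centred on each gene so that 0 is the mean over the 8 libraries, was -1.09, -0.03, -0.75 and -1.13 in fasted and 0.66, 0.90, 0.12 and 1.33 in fed libraries. The groups did not overlap in this score, but fed replicate 3 and fasted replicate 2 were close to each other. Summed over the 41 collagens, normalized counts were 52496, 69713, 60977 and 32425 in fasted and 52435, 33947, 27098 and 34868 in fed libraries. This sum, in which abundant genes weigh most, was thus not lower in fasted worms, and the groups overlapped. They overlapped in the sums of the cuticlin and pharyngeal cuticle lists too. The hedgehog-related sum was lower in most fasted libraries. Without fed replicate 1 and fasted replicate 4, edgeR called 6 collagens higher and 1 lower, 20 were apart and lower, and the median was -1.81. Among all listed genes 30.3% were then apart and lower, and edgeR called 191 higher and 25 lower. Without fed replicate 3 and fasted replicate 2, a pair chosen after the data were seen, the median was -2.66 for the collagens, -1.88 for the cuticlins, astacins and molting genes, -2.70 for the hedgehog-related and patched-related genes and -2.72 for those of the pharyngeal cuticle. Pharyngeal gland genes split in direction: phat-7 was higher at 0.93 ± 0.24, and phat-5 lower at -2.86 ± 0.73, from 18.5, 14.5, 5.44 and 38.9 normalized counts in fed to 0.887, 3.07, 1.08 and 5.40 in fasted libraries.

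**Figure D3:**
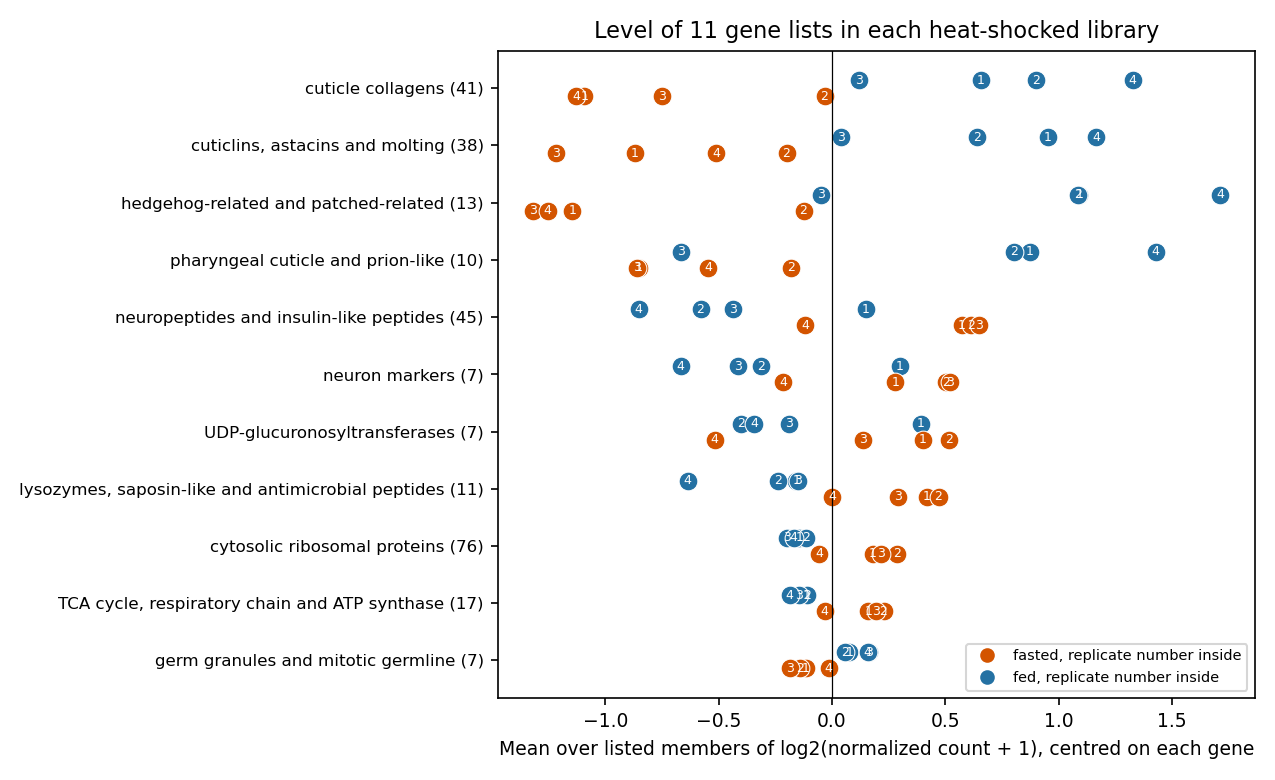
Mean over the listed members of each gene group (rows) of log2(normalized count + 1), centred on each gene so that 0 is the mean of the 8 libraries (horizontal axis), 1 point per fed or fasted heat-shocked library with its replicate number. Fasted replicate 4 is the lowest fasted library for neuropeptides (-0.12 against 0.57 to 0.65) and ribosomal proteins, and fed replicate 3 the lowest fed library for collagens.

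The listed cytosolic ribosomal protein genes were higher in fasted heat-shocked worms as a block. Of 84 annotated genes 76 were listed and all 76 had a higher mean (53.4% of all listed genes did), 30 of 31 of the small subunit, 45 of 52 of the large subunit and the ubiquitin fusion gene ubq-2. The steps were small and alike, with log2 fold changes of 0.18 to 0.53 and a median of 0.31. In 38 of the 76 the groups were apart (32.5% of all listed genes with a higher mean were). DESeq2 called 14 of them higher and edgeR 0. Over all 15456 genes DESeq2 called 29 higher (0.188%). Listed genes of their median length (627.5 bases) had a higher mean in 79.9%. Under TMM scaling over the listed genes the median of all listed genes moved by -0.13, and that of the ribosomal protein genes was 0.18 in place of 0.31.

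Summed over the 76 genes, the normalized counts were 2158700, 2381800, 2248600 and 1841500 in fasted libraries 1 to 4 and 1790100, 1798900, 1676200 and 1719200 in fed libraries 1 to 4. Fasted replicate 4 lay just above the fed libraries, and the other 3 fasted libraries well above. It was the lowest fasted library in 73 of the 76 genes. rps-29, which encodes a small zinc-binding protein of the small subunit, had 7583, 6800, 6355 and 6343 normalized counts in fasted and 4008, 5169, 5059 and 4807 in fed libraries. All fasted libraries lay above all fed ones, at a log2 fold change of 0.51 ± 0.09 (DESeq2 adjusted p = 0.0049, edgeR adjusted p = 0.48). rps-28 was at 0.53 ± 0.11 and rpl-37A at 0.46 ± 0.10 (DESeq2 adjusted p = 0.028 and 0.016), both with the groups apart. rplp-1, an acidic protein of the ribosomal stalk that contacts elongation factors, had 38178, 35920, 38153 and 33515 normalized counts in fasted and 31254, 29502, 29164 and 29422 in fed libraries. The groups were apart, with fed replicate 1 above the other 3 fed libraries, which were almost equal, and the log2 fold change was 0.29 ± 0.07 (DESeq2 adjusted p = 0.0098).

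All 4 stalk genes were listed, all apart, at 0.24 to 0.34. Of the 76 genes only 2 were also in the 20°C table, both higher there. Without fed replicate 1 and fasted replicate 4, all 76 genes had the groups apart, edgeR called 34 of them higher, and the median was 0.39. By that choice of libraries, 46.3% of all listed genes were apart and higher, and edgeR called 191 higher. Other parts of the translation machinery were hardly listed. Of 67 mitochondrial ribosome genes 3 were listed, all higher, and of 80 translation factors and tRNA synthetases 4, 3 higher and 1 lower.

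Genes of the respiratory chain were higher too, in small steps. Of 74 genes of the TCA cycle, the respiratory chain and ATP synthase 17 were listed, all with a higher mean, at a median of 0.28. In 6 of the 17 the groups were apart (32.5% of all listed genes with a higher mean were). The 17 include 5 of 15 cytochrome c oxidase subunits and 6 of 10 ATP synthase subunits but 1 of 13 complex I subunits. Of the 12 mitochondrially encoded genes 1 was listed, ND3 of complex I, higher at 0.46 ± 0.20 with overlapping groups. Listed genes of the 17 genes' median length (633 bases) had a higher mean in 79.9%, and under TMM scaling over the listed genes their median was 0.15. cox-6C, a subunit of cytochrome c oxidase, had 3332, 3725, 3496 and 2873 normalized counts in fasted and 2523, 2654, 2618 and 2491 in fed libraries. The groups were apart and the fed libraries close together, at a log2 fold change of 0.38 ± 0.08 (DESeq2 adjusted p = 0.026), and at 20°C cox-6C was at 0.42 (edgeR adjusted p = 0.26). The ATP synthase gene atp-4 was at 0.20 ± 0.06 (DESeq2 adjusted p = 0.11), also apart. Of 30 genes of glycolysis, gluconeogenesis and the glyoxylate cycle 4 were listed, all higher, among them the aldolase gene aldo-2 at 0.31 ± 0.09. The trehalose synthesis gene tps-2 had 1398, 1734, 1435 and 1245 normalized counts in fasted and 1058, 1079, 1198 and 731 in fed libraries. Its groups were just apart, at 0.52 ± 0.15 (DESeq2 adjusted p = 0.20). Without fed replicate 1 and fasted replicate 4, edgeR called 6 of the 17 respiratory genes and 14 were apart. That pair was chosen for lying near the other group, and without it 46.3% of all listed genes were apart and higher.

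Neuropeptide precursors were higher in fasted heat-shocked worms, every one that was listed. Of 153 genes of neuropeptides and insulin-like peptides 45 were listed, 15 of 31 FMRFamide-like (flp) genes, 26 of 81 other neuropeptide-like genes and 4 of 40 insulin-like genes. All 45 had a higher mean, with a median log2 fold change of 0.81, and the groups were apart in 6 of the 45 (32.5% of all listed genes with a higher mean were): ins-23, flp-22, nlp-27, nlp-61, nlp-91 and nlp-78. Listed genes of their median length (589 bases) had a higher mean in 82.6%. DESeq2 called 0 of them and edgeR 0, with 29 of the 45 at an unadjusted p under 0.05 by edgeR (78.5% of all listed genes were). The same 2 libraries were the closest in most of them. Fed replicate 1 was the highest fed library in 33 of the 45 genes and fasted replicate 4 the lowest fasted one in 39. The centred score was 0.57, 0.61, 0.65 and -0.12 in fasted and 0.15, -0.58, -0.44 and -0.85 in fed libraries, so that fasted replicate 4 lay below fed replicate 1. Without this pair 40 of the 45 were apart, edgeR called 19, and the median was 1.24. Among all listed genes 46.3% were then apart and higher, and edgeR called 191 higher. The pair was chosen for lying near the other group, so wider differences follow by construction.

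flp-22, which encodes FMRFamide-like peptides, had 273, 310.0, 297 and 228 normalized counts in fasted and 227, 174, 202 and 138 in fed libraries. Fasted replicate 4 and fed replicate 1 were almost equal, and the groups were apart by that hair, at 0.58 ± 0.19 (DESeq2 adjusted p = 0.20). flp-2 had 95.8, 94.1, 79 and 57.3 normalized counts in fasted and 59.6, 35.3, 40.2 and 33.9 in fed libraries. Here the same pair crossed over and the groups overlapped, at 0.94 ± 0.29 (DESeq2 adjusted p = 0.16). The insulin-like gene ins-23 had 18.6, 22.5, 27.1 and 18.4 normalized counts in fasted and 8.06, 6.22, 12 and 5.98 in fed libraries. Its groups were clearly apart, at low counts, for a log2 fold change of 1.41 ± 0.39 (DESeq2 adjusted p = 0.17).

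The 20°C libraries, which played no part in selecting this table, gave the same direction. There 32 of the 45 genes were listed, each with a higher mean after the fast, at a median of 1.0, though each table lists a gene only where it differs. Direction was the same in 380 (92.7%) of all 410 genes listed at both temperatures. At 20°C edgeR called 3 of the 32 neuropeptide genes, nlp-20 at 1.19 (adjusted p = 0.043), flp-28 at 1.0 (adjusted p = 0.024) and flp-3 at 1.25 (adjusted p = 0.049). Of all 410 genes edgeR called 56 there (13.7%). With the replicate block it called 17 of the 32, all higher (31.7% of all genes in both tables were called). The enzymes that make peptides from precursors had higher means too. egl-3 had 1298, 1730, 1514 and 889 normalized counts in fasted and 1352, 679, 727 and 502 in fed libraries. Fed replicate 1 stood at the level of the fasted libraries, and the log2 fold change was 0.73 ± 0.29 (edgeR adjusted p = 0.61). egl-3, egl-21, the EGL-3 chaperone sbt-1 and the amidation genes pgal-1 and pghm-1 were all higher, at 0.64 to 0.81 after heat shock and 0.61 to 0.96 at 20°C (lowest edgeR adjusted p there 0.0999). With the replicate block edgeR called sbt-1 and pghm-1 at 20°C (adjusted p = 0.027 and 0.042).

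Of 46 neuron markers 7 were listed (15.2% of those annotated), 6 higher and 1 lower, at a median of 0.67. Listed genes of their median length (1736 bases) had a higher mean in 35.4%. The neuron markers include egl-3 and egl-21, given above among the peptide enzymes, so these sets overlap. They also include ida-1, a dense core vesicle protein (0.71 ± 0.28), the syntaxin gene unc-64 (0.50 ± 0.18) and the GABA synthesis gene unc-25 (0.74 ± 0.33), all with overlapping groups. unc-18, which binds syntaxin for vesicle fusion, was lower, with 515, 487, 465 and 563 normalized counts in fasted and 758, 632, 557 and 593 in fed libraries. Its groups overlapped through fasted replicate 4 and fed replicate 3, at -0.32 ± 0.12. Muscle, another tissue, had 3 of 70 genes listed (4.29%), all higher. Their score set fed replicate 1 apart from the other fed libraries (0.38 against -0.57 to -0.42). For the neuropeptides too it was the highest fed library. Without fed replicate 1 and fasted replicate 4, edgeR called all 3 muscle genes and 4 of the 7 neuron markers higher. Among all listed genes it called 191 higher without that pair, which was chosen for lying near the other group. The part of these libraries in the differences was not tested.

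Among genes of detoxification, 7 of 67 UDP-glucuronosyltransferases were listed, 5 higher and 2 lower, at a median length (1689 bases) where 38.9% of listed genes had a higher mean. ugt-13 had 506, 637, 589 and 325 normalized counts in fasted and 232, 237, 269 and 159 in fed libraries. The groups were apart, with replicate 4 the lowest on both sides, at 1.2 ± 0.23 (DESeq2 adjusted p = 0.0030). ugt-8 was at 1.28 ± 0.31 (DESeq2 adjusted p = 0.033), from 71.7, 64.3, 78.3 and 35.9 in fed to 165, 167.8, 187 and 88.6 in fasted libraries. The 2 genes lie close together on the plus strand of chromosome V, ugt-8 from 4903974 to 4905917 and ugt-13 from 4908871 to 4911458, and reads of near-identical stretches could be split between them. At 20°C ugt-13 was at 1.41 and ugt-8 at 1.29 (edgeR adjusted p = 0.11 and 0.30), and with the replicate block ugt-13 was called (adjusted p = 0.0082). The other members were ugt-11, ugt-19 and ugt-25, higher at 0.86 to 1.04, and ugt-57 and ugt-65, lower at -1.97 ± 0.59 and -1.89 ± 0.63 with the groups apart. At 20°C edgeR called ugt-19 at 1.69 (adjusted p = 0.015) but not ugt-11 or ugt-25 (adjusted p = 0.089 and 0.24). Without fed replicate 1 and fasted replicate 4, edgeR called 3 of the 7 genes higher, as it did 191 of all 1442 listed genes.

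Among immune genes, of 125 lysozymes, saposin-like proteins and antimicrobial peptides 11 were listed, 10 higher and 1 lower, at a median of 0.64. The groups were apart in 4 of the higher ones (32.5% of all listed genes with a higher mean were). Listed genes of the 11 genes' median length (442 bases) had a higher mean in 90.3%, a like share. fip-2, a fungus-induced peptide gene, had 421, 502, 509 and 399.8 normalized counts in fasted and 249, 269, 383 and 180.4 in fed libraries. The lowest fasted library lay just above the highest fed one, at 0.76 ± 0.21 (DESeq2 adjusted p = 0.12). Of 264 C-type lectins, secreted sugar-binding proteins, 14 were listed, 11 lower and 3 higher, at a median of -0.82. The groups were apart in 4 of the lower ones and 1 of the higher ones. Among all listed genes 37.8% of the lower and 32.5% of the higher ones were apart. At the lectins' median length (974 bases) 59% of listed genes had a higher mean. clec-174 and clec-259 were lower at -3.12 ± 0.88 and -3.12 ± 0.89, and clec-49 was higher at 0.59 ± 0.17, all 3 with the groups apart. The infection response gene irg-4 was lower at -0.99 ± 0.43 after heat shock and at -1.92 at 20°C, where edgeR called it (adjusted p = 0.036). It had 70.1, 53.2, 60.6 and 180.5 normalized counts in fasted and 127, 196, 282 and 121 in fed heat-shocked libraries. Fasted replicate 4 alone reached the level of the fed worms.

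Transporter genes had lower means on balance. Of 191 solute carriers and ABC transporters 21 were listed, 16 lower and 5 higher, at a median of -0.62. The groups were apart in 5 of the lower and 2 of the higher ones. Among all listed genes 37.8% of the lower and 32.5% of the higher ones were apart. At the transporters' median length (1865 bases) 35.4% of listed genes had a higher mean. The sugar transporter swt-5 was at -3.72 ± 0.83 and the amino acid transporter aat-6 at -1.63 ± 0.55, both apart, and the P-glycoprotein pgp-13 was higher at 1.06 ± 0.35, also apart. Of 221 ion channels, grouped here with the nervous system, 13 were listed, 10 lower and 3 higher, at a median of -0.70. At their median length (1758 bases) 35.4% of listed genes had a higher mean. Of 135 genes of vesicle transport and endocytosis 9 were listed, 7 lower and 2 higher, 5 of the 7 with the groups apart (37.8% of all lower listed genes), at a median length of 2273 bases, where 22.9% of listed genes had a higher mean.

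The listed genes of germ granules and the mitotic germline were lower in small steps. Of 82 genes of germ granules and the mitotic germline 7 were listed, all lower, at a median of -0.20, and these are long genes (median length 3832 bases, where 17.9% of listed genes were higher). Under TMM scaling over the listed genes their median was -0.33. Other germline lists were mixed. In the sperm list 12 of 13 listed genes were higher, at a length where 90.3% of listed genes were. Most of these 12 are nspc genes, a family of small nematode-specific peptides, and the major sperm protein gene msp-31 was lower. Of 6 listed oocyte and eggshell genes 2 were higher. glh-4, an RNA helicase of germ granules, had 2759, 2863, 2667 and 3205 normalized counts in fasted and 3476, 3383, 3724 and 3874 in fed libraries. All fasted libraries lay below all fed ones, at -0.33 ± 0.08 (DESeq2 adjusted p = 0.044), and glh-4 was at -0.51 at 20°C (edgeR adjusted p = 0.20, and 0.034 with the replicate block). znfx-1, a germ granule helicase of inherited RNA silencing, was at -0.23 ± 0.07. All 5 listed Argonautes, the proteins that carry small RNAs, were lower at -0.38 to -0.19, 3 of them apart. They were prg-2, ppw-1, alg-1, rde-1 and nrde-3, a set chosen after its values were seen. At their median length (3219 bases) 17.9% of listed genes had a higher mean, and 37.8% of all lower listed genes were apart. None of the 5 was in the 20°C table. rde-1 had 1785, 1678, 1627 and 1849 normalized counts in fasted and 1883, 1875, 2115 and 2064 in fed libraries. Its groups were apart but adjoining, at -0.19 ± 0.07 (DESeq2 adjusted p = 0.38).

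Of 283 nuclear hormone receptors 9 were listed, 8 lower, 6 of them apart, and 1 higher, at a median of -0.48, and none was in the 20°C table. Of all listed genes with a lower mean 37.8% were apart, and at the receptors' median length (1700 bases) 38.9% of listed genes had a higher mean. They include nhr-25, which acts in molting (-0.91 ± 0.38), and nhr-4 at -0.50 ± 0.18, from 153, 184, 165 and 174 in fed to 135.8, 106, 101 and 135 normalized counts in fasted libraries. nhr-3 was the exception, with 497, 522, 735 and 303 in fasted and 230.4, 253, 244 and 336 in fed libraries. Fasted replicate 4 fell below fed replicate 4 there, at 0.95 ± 0.25 (DESeq2 adjusted p = 0.074). Of 106 chromatin modifiers 11 were listed, 7 lower and 4 higher. jmjd-3.1, the H3K27 demethylase that the study examined, had 86.1, 95.1, 57.4 and 98.3 normalized counts in fasted and 180.5, 114, 88.1 and 162 in fed libraries. Fed replicate 3 lay within the range of the fasted libraries, at -0.70 ± 0.28 (DESeq2 adjusted p = 0.41, edgeR adjusted p = 0.62).

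Of 52 genes of endoplasmic reticulum folding and secretion 7 were listed (13.5% of those annotated), 4 higher and 3 lower. The 9.33% of all genes counts only genes that the authors adjusted over, so such shares cannot be set against it. They were lower elsewhere, as for the nuclear hormone receptors (3.18%) and C-type lectins (5.3%). hsp-4, the BiP chaperone of the endoplasmic reticulum, had 37252, 49136, 51292 and 25495 normalized counts in fasted and 22575, 19953, 29117 and 22775 in fed libraries. Fasted replicate 4 lay within the fed range and the other 3 fasted libraries above it, at 0.79 ± 0.21 (DESeq2 adjusted p = 0.075). xbp-1, the transcription factor of that compartment's unfolded protein response, was at 0.48 ± 0.14, and at 20°C edgeR called it at 0.41 (adjusted p = 0.048, and 0.057 with the replicate block). sqst-1, the p62 autophagy receptor, had 5249, 5635, 7761 and 4867 normalized counts in fasted and 2891, 3429, 4582 and 4051 in fed libraries. Its groups were apart, at 0.65 ± 0.17 (DESeq2 adjusted p = 0.092), and of 37 autophagy genes 4 were listed (10.8%), 3 higher and 1 lower. Of 40 genes known to respond to the transcription factors DAF-16 and PQM-1, the pud and dod genes included, 5 were listed (12.5%). All 5 were higher at a median of 0.62, with 1 apart (32.5% of all listed genes with a higher mean were). At their median length (711 bases) 79.9% of listed genes had a higher mean. Of 38 proteasome genes 3 were listed (7.89%), all higher. The AMPK gamma subunit gene aakg-3 was higher at 1.25 ± 0.34, with the groups apart.

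Several of the strongest differences lay in genes outside the groups above. ador-1, which carries the seven-helix receptor domain of the rhodopsin class, had 102.95, 183, 118 and 29.2 normalized counts in fasted and 20.9, 29, 26.1 and 8.97 in fed libraries. Fasted replicate 4 was far below its fellows and just above the highest fed library, at 2.35 ± 0.54 (DESeq2 adjusted p = 0.020). The non-coding RNA srpr-1.2 was at 2.08 ± 0.38 and the pseudogene F55C5.2 at 1.94 ± 0.42 (DESeq2 adjusted p = 0.0049 and 0.0098), both apart. F55C5.2 had 65.7, 51.2, 86.6 and 48.6 normalized counts in fasted and 8.06, 28, 12 and 17.9 in fed libraries and was at 2.13 at 20°C (edgeR adjusted p = 0.090). Non-coding RNAs as a class had 21 of 25 listed members higher and 4 lower, and pseudogenes 21 of 26 higher and 5 lower. Of listed genes of the same median length, 90.3% were higher for the non-coding RNAs and 59% for the pseudogenes. The protein-coding Y54G2A.40 was higher at 1.84 ± 0.42 (DESeq2 adjusted p = 0.023). K09C4.5, with a sugar transporter domain, had 26.6, 14.3, 24.9 and 67 normalized counts in fasted and 67.7, 122, 193 and 181.4 in fed libraries. Fasted replicate 4 all but met fed replicate 1, at -2.08 ± 0.49 (DESeq2 adjusted p = 0.024). ZK180.5 was lower at -3.67 ± 0.78 (DESeq2 adjusted p = 0.0047), with fed replicate 3 the lowest fed library as in the cuticle genes.

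**Figure D4:**
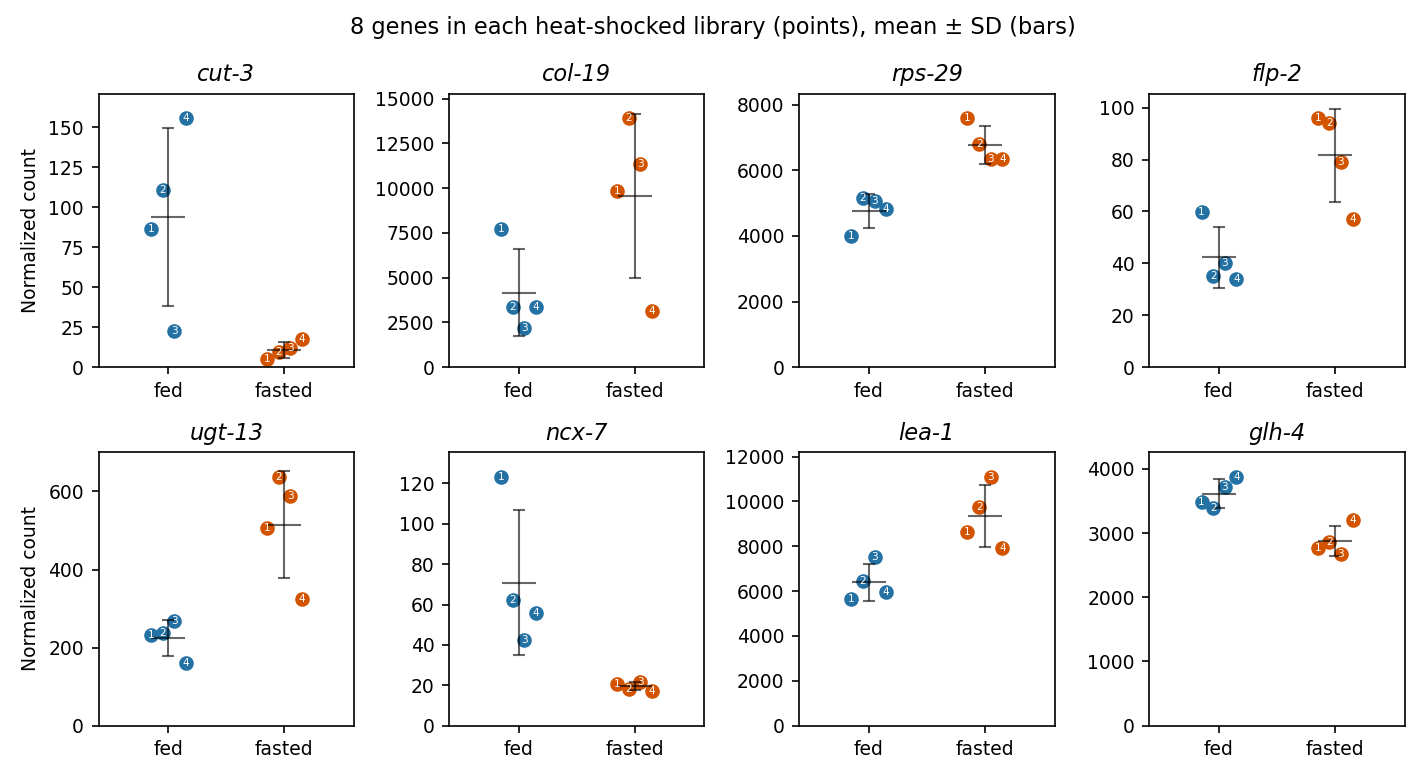
Normalized counts of single genes (vertical axis, linear from 0) in the 4 fed and 4 fasted heat-shocked libraries, 1 point per library with its replicate number, and bars at each group's mean ± SD. For cut-3, ncx-7 and glh-4 every fasted library is below every fed one, for rps-29, ugt-13 and lea-1 every fasted library is above, and for col-19 and flp-2 the groups overlap.

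The 20°C comparison measured the same genes in worms without heat shock. Of the 1442 genes 410 were listed in both tables, 28.4% of the heat shock table and 15.4% of the 20°C table. Their direction was the same in 380 (92.7%), 242 higher and 138 lower in both, and opposite in 30. At 20°C, edgeR called 56 of the 410 (13.7%, against 13.8% of all genes in the 20°C table), 46 higher and 10 lower, 53 of them in the same direction as after heat shock. With the replicate block 130 of the 410 were called (31.7%, against 25.7% of all genes in the 20°C table). The ribosomal proteins (2 of 76) and nuclear hormone receptors (0 of 9) were almost absent from the 20°C table, whereas the neuropeptides (32 of 45) were mostly in it.

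Whether fasting had another effect at 35°C than at 20°C was tested by an interaction term, which could be fitted only for the 410 genes in both tables. Adjusted over 15456 genes, with the untested ones counting as a p of 1, edgeR called 0 (0%, lowest adjusted p 0.455), with 33 at an unadjusted p under 0.05. Adjusted over the 410 tested genes alone, which ignores how both tables were selected, edgeR called 16 (3.9%), 15 of them with opposite directions. Adjusted over 15456 genes, DESeq2 called 6: ncx-7, F55G1.15, tbb-6, nas-3, tts-1 and spin-1. The tables were normalized separately, and the term compares differences within each. Groups scarce in the 20°C table, among them the ribosomal proteins and the nuclear hormone receptors, were thus not tested for a difference between temperatures. ncx-7, a sodium-calcium exchanger gene, had 20.4, 18.4, 21.6 and 17.3 normalized counts in fasted and 123.3, 62.2, 42.4 and 55.8 in fed heat-shocked libraries. The fasted libraries were nearly equal and all below the fed ones, at -1.87 ± 0.38, whereas the 20°C difference was 0.69 ± 0.27 in the other direction (DESeq2 adjusted p of the interaction 0.0016). tts-1, a long non-coding RNA known from long-lived and dauer worms, was higher after heat shock at 0.52 ± 0.23 and lower at 20°C at -1.98 ± 0.42, where edgeR called it (adjusted p = 0.038).

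Of the 30 genes with opposite directions, 22 were lower after heat shock and higher at 20°C. They include the intestinal peptide transporter pept-1 (-0.77 ± 0.35 after heat shock, 1.21 ± 0.29 at 20°C), the monocarboxylate transporter mct-2 (-1.2 ± 0.37 and 1.07 ± 0.39) and the lysosomal transporter spin-1 (-0.77 ± 0.37 and 1.27 ± 0.23). At 20°C pept-1 was called with the replicate block (edgeR adjusted p = 0.0083, against 0.064 without it). For pept-1 the heat-shocked worms had 193, 211, 173 and 188 normalized counts in fasted and 581, 307, 144 and 271 in fed libraries. Fed replicate 1 carried much of that difference, and fed replicate 3 lay below all fasted libraries. Without fed replicate 1 and fasted replicate 4, pept-1 was at -0.32 ± 0.27, spin-1 at -0.19 ± 0.22 and ncx-7 at -1.40 ± 0.30. lea-1, a protein of desiccation tolerance, went the other way, with 8617, 9747, 11094 and 7942 normalized counts in fasted and 5635, 6443, 7519 and 5980 in fed heat-shocked libraries. Its groups were apart, at 0.55 ± 0.12 (DESeq2 adjusted p = 0.030), and at 20°C it was at -0.28 ± 0.12 (edgeR adjusted p = 0.28).

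**Figure D5:**
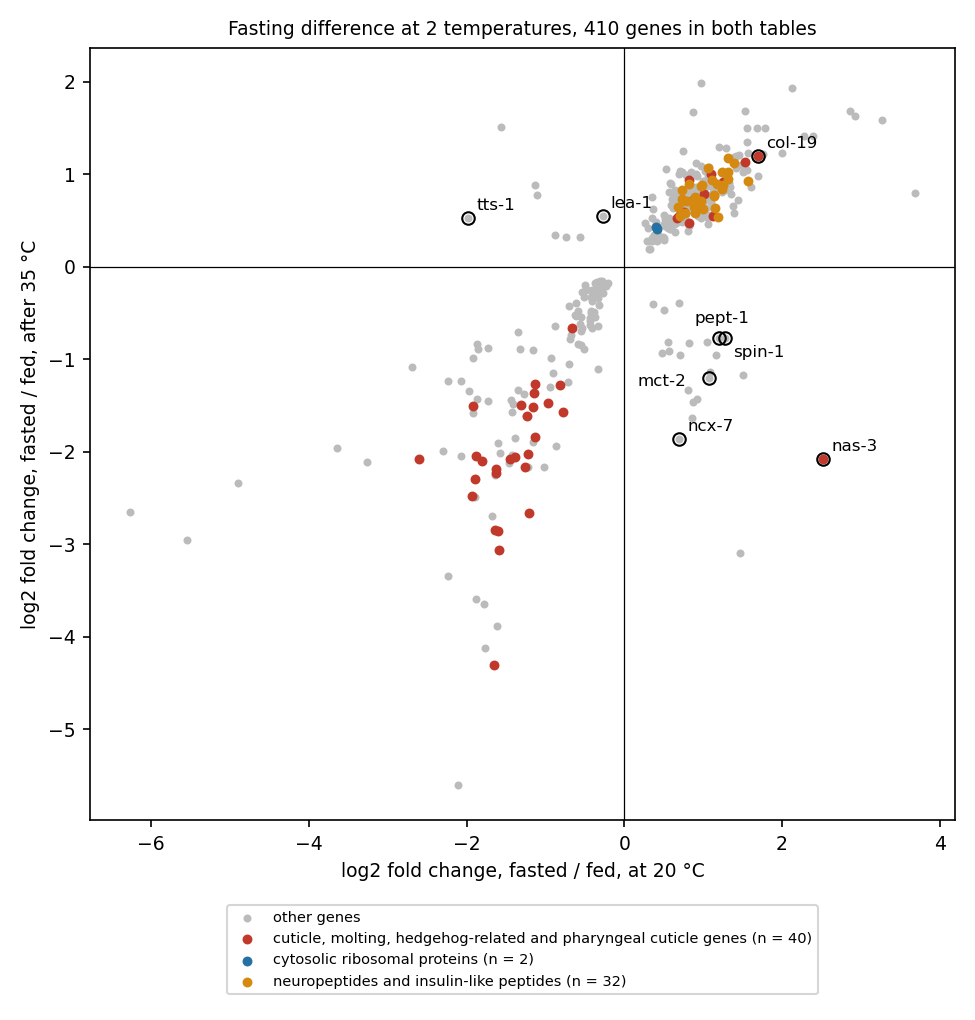
Log2 fold change of fasted against fed worms at 20°C (horizontal axis) and after 35°C (vertical axis) for the 410 genes in both tables, both from edgeR. Of these, 380 lie in the quadrants of equal direction and 30 in those of opposite direction, among them ncx-7, nas-3, spin-1, pept-1 and tts-1.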

How the data were processed

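RNA of whole N2 worms was sequenced as paired-end reads from poly(A) RNA, and the comparison used 4 fasted and 4 fed libraries exposed to 35°C, with 4 fasted and 4 fed libraries at 20°C beside them. The raw counts per gene were made by the authors, with HISAT2 2.0.5 as the aligner, WBcel235 as the build and featureCounts 1.5.0-p3 as the counter. No source used here says that strand was kept, so overlapping and antisense genes cannot be told apart, and near-identical copies (collagens, nspc peptides) may share reads. The deposited signal values are normalized counts, each a raw count divided by the DESeq2 size factor of its library (0.919 to 1.24). FPKM, also deposited by the authors, served to compare levels between genes. The log2 fold changes and p-values in the deposited tables are the authors' own DESeq2 results (version: not given in the sources used here) and were not used, except that their p-values under 0.05 decided which genes are listed.

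Library reads were recovered from count, FPKM and length, and raw counts were tested with edgeR 4.0.16 in R 4.3.3 (quasi-likelihood test, the authors' size factors). All fits used the listed genes alone, so the spread behind each p-value and standard error was estimated from genes selected on this contrast. Benjamini-Hochberg adjustment ran over 15456 genes (14982 at 20°C), unlisted genes counting as a p of 1, with a call at an adjusted p under 0.05. DESeq2 1.42.0 and limma 3.58.1 were alternatives, as were other scalings, a mean count of at least 10, the replicate block, a fold of at least 1.5 and libraries left out singly or in pairs. Gene names came from RefSeq for 1419 genes (mitochondrial ones matched by coordinates of the same build) and from Ensembl for 2, and 21 had none. Lists and figures were made in Python 3.11.15 (numpy 2.4.6, pandas 2.3.3, matplotlib 3.10.9), with 60 gene lists written as sets of gene symbols. The scripts were tested on simulated data.

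The genes, lists and tests were chosen with earlier results of these data known. Leaving out the HSF-1 targets that the paper names and the small heat shock proteins, the named genes were the 12 largest differences in each direction among genes that averaged 50 or more normalized counts and had their groups apart, the 4 members with the smallest edgeR p of each list with 3 or more listed members, 8 genes per direction with the smallest DESeq2 adjusted p, 5 per direction of the interaction, and list members with opposite directions at the 2 temperatures. Any other gene or small set was chosen after its values were seen, including noah-1, col-19, col-42, col-140, col-143, irg-4, jmjd-3.1, the lpr genes, the phat genes, the Argonautes, the peptide processing enzymes, the galectins and the protein domains.

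At 20°C each fasted library's deviation from its group mean was correlated with that of the fed library of the same number, at 0.166, 0.106, 0.297 and 0.103, all above the bound of 0.1, so the replicate numbers were taken as 4 pairs there. That pairing comes from the data and not from the labels, and fasted replicate 2 correlated better with fed replicate 1 (0.244).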

Additional observations from a re-analysis of the deposited data

Results flagged for a closer look

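Of the genes and gene groups described per library, 150 sets of 4 libraries were tested for 1 library far from the other 3 (Dixon's test at the 95% level), and 9 stood out (6%), where chance gives about 1 in 20. In fasted worms, noah-1 was at 18.4 normalized counts in replicate 3 against 88.7 to 99.2 in the others. The non-coding RNA srpr-1.2 was at 19.5 in fasted replicate 4 against 38.9 to 42.2, and irg-4 was at 180 in fasted replicate 4 against 53.2 to 70.1. In fed worms, replicate 1 was the one apart for rplp-1 (31254 against 29164 to 29502), spin-1 (207 against 65.3 to 86.7) and nas-3 (65.3 against 5.98 to 14.5).

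Among gene groups, the centred score of the hedgehog-related and patched-related genes was -0.13 in fasted replicate 2 against -1.32 to -1.14 in the other fasted libraries. That of the neuropeptides was -0.12 in fasted replicate 4 against 0.57 to 0.65, and that of the 3 muscle genes was 0.38 in fed replicate 1 against -0.57 to -0.42. Fed replicate 1 and fasted replicate 4 account for 7 of the 9. Why these libraries differ was not tested.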

How the results depend on the processing

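The count of genes called after heat shock was 0 with edgeR under each scaling, the filter on low counts, the fold of at least 1.5, the replicate block and each single library left out (0 to 0). It was 51 with DESeq2, 1 with limma on log2(FPKM + 1), 2 with limma on log2(FPKM + 0.1), 216 without fed replicate 1 and fasted replicate 4, and 470 when adjusted over the table alone, which ignores how the table was selected. Genes at an unadjusted p under 0.05 (1132) ran from 642 to 1177 with 1 library left out, with the lowest counts without fasted replicate 1 (720), fasted replicate 2 (704), fasted replicate 3 (642) and fed replicate 4 (669), and were 602 without fed replicate 3 and fasted replicate 2, a pair added after the data were seen. The count at 20°C among genes in both tables (56) was 131 with DESeq2, 130 with the replicate block and 13 to 69 with 1 library left out, lowest without fasted replicate 1. The interaction (0) gave 6 genes with DESeq2 and 16 when adjusted over the genes in both tables alone, and 0 without any single library. Of 238 single genes, 1 reversed, cyp-37B1, at 0.037 without fed replicate 3 and fasted replicate 2 against -2.34 (range over libraries left out -3.29 to 0.037). Of 52 list medians, 2 reversed: the pharynx markers at 0.85 with a mean count of at least 10 (against -0.70), and the genes of spermatheca, sheath, uterus and vulva at 0.013 without fasted replicate 3 (against -0.029, range over libraries left out -0.058 to 0.013). The cause was not tested. TMM over the listed genes shifted the median of all listed genes by -0.13, and DESeq2 size factors over them by -0.13, with 0 genes changing direction, and took the median of the ribosomal proteins from 0.31 to 0.18 under both and that of the respiratory genes from 0.28 to 0.15.

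With the replicate number as a block the heat shock comparison gave 0 calls and 1205 genes at an unadjusted p under 0.05. Same-numbered libraries there correlated at 0.257, 0.0622, 0.265 and 0.304. Since 0.0622 lay under the bound of 0.1, the numbers were not taken as pairs, though the others lay above most of the 20°C values. Fasted replicate 2 correlated better with fed replicate 4 (0.193). At 20°C the block ended the call of xbp-1 and added those of col-143, sbt-1, pghm-1, ugt-13, glh-4 and pept-1, and among the other single genes whose 20°C value is given it changed no call. The listed genes hold at most 23% of each library's reads, and low genes such as col-65 or phat-5 rest on a few counts in fasted worms.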

Other observations

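All 7 listed members (of 88) of the transthyretin-like and SCP domain genes were higher, at a median log2 fold change of 1.13. The groups were apart in 1 of them (32.5% of all listed genes with a higher mean were). Of listed genes of their median length (665 bases) 79.9% had a higher mean. All 4 listed galectins, which bind sugars, were higher at 0.22 to 0.61, and all had overlapping groups. The list of sperm genes had 12 of 13 listed members higher, but 10 of them are nspc genes, a family of small nematode-specific peptides whose copies may share reads, and the major sperm protein gene msp-31 was the one with a lower mean. nspc-7 was the one of these that DESeq2 called, at 1.0 ± 0.23 (adjusted p = 0.023). Of 391 F-box genes, which choose proteins for ubiquitination, 7 were listed, 6 higher and 1 lower.

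All 7 listed genes with a Kunitz protease inhibitor domain had lower means (median log2 fold change -2.41), at a median length of 4712 bases, where 17.9% of listed genes had a higher mean. All 5 with a PAN domain were lower too (median -1.56), at a median length of 2564 bases, where the share was 22.9%. Of 58 genes of basement membrane, adhesion and spectrin 5 were listed, all lower, 2 of them apart, at a length where the share was 17.9%. Among all lower listed genes 37.8% were apart. Of 75 beta-oxidation genes 5 were listed, 4 lower and 1 higher, and of 28 intestine markers 2 were listed, both lower. None of the 6 vitellogenins, the yolk proteins, was listed after heat shock.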
